A study of Marchantia polymorpha with 12 samples.

Results

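Thalli of the liverwort Marchantia polymorpha that carried the Mpknox2-1 mutation and no Mpez1 mutation were grown in 2 experimental sets, and the 3 set 1 libraries were compared with the 3 set 2 libraries. These 6 libraries, picked by their titles, are part of 12. The other 6 are double mutants, 3 Mpknox2-1 Mpez1-1 libraries in set 1 and 3 Mpknox2-1 Mpez1-2 libraries in set 2, and served below only as separate libraries of the same sets. All 12 came from 14-day thalli kept in continuous white light on agar medium, and all carry Mpknox2-1, so no thallus without that mutation enters here. The comparison asks how far 2 groups with the same genotype label, age and stated growth conditions differ from one set to the other. Set, line background and batch cannot be told apart. The count columns of set 2 controls carry "Tak2" and "G4" in their names and those of set 1 controls do not. The labels do not explain these marks, and they do not say whether both sets used the same Mpknox2-1 line, whether a line is 1 clone, or which sex the plants had. Replicates are called biological without a statement of separate cultures, so the p-values below measure the spread between these libraries.

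The thallus is the flat haploid body that dominates the life cycle of Marchantia. It grows from stem cells in an apical notch, anchors itself with rhizoids, contains oil body cells and bears gemma cups on its upper surface. MpKNOX2 is a class II KNOX homeodomain gene, and MpE(z)1 encodes the catalytic subunit of Polycomb repressive complex PRC2, the histone methyltransferase that keeps many genes silent. Of the gene groups that differed here, class III peroxidases are secreted haem enzymes that act on cell wall phenolics. SAUR genes are small genes induced early by auxin in flowering plants, and WRKY and ERF proteins are families of transcription factors best known from stress and hormone responses there.

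The mutated and the intact target were examined first. MpKNOX2 (MpHD21, Mp7g05320) had 0, 0 and 2 counts in set 1 and 0, 0 and 0 counts in set 2, too few for a test or a fold in either direction. MpE(z)1 (MpCXC3, Mp5g18040), which is not mutated in these plants, had 34.9, 27 and 28.3 CPM in set 1 and 34.8, 31.9 and 37.5 CPM in set 2, where CPM is the count per library size, with TMM (trimmed mean of M values) factors. The ranges of the sets overlapped and MpE(z)1 did not pass the test (log2 fold change -0.21 with SE 0.11, edgeR adjusted p = 0.13, folds being set 1 over set 2 throughout). With upper-quartile scaling it passed, at a log2 fold change of -0.39 (edgeR adjusted p = 0.0113), and without set 1 replicate 1 at -0.31 (edgeR adjusted p = 0.0319).

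Gene counts ranged from 9765787 to 12098548 in set 1 and from 9918693 to 10509741 in set 2. The 3 set 1 libraries were uneven in a few respects. Copies of transposable elements (TEs) had 29645 to 85937 counts in the first of the 2 tables per library. In the second, given below, they had 404953 to 1028910. In the first tables they took 0.552%, 0.705% and 0.313% of the counts in set 1 and 0.352%, 0.338% and 0.293% in set 2 (exact permutation test, two-sided p = 0.3, with 0.1 the smallest that 3 against 3 can give). Without set 1 replicate 2 the difference of the means, 0.196 percentage points, became 0.105, and without set 1 replicate 3 it became 0.301. One gene, MpVg01240, took 0.750%, 1.45% and 0.393% of the gene counts in set 1 and 0.345%, 0.327% and 0.261% in set 2. The other V chromosome identifiers together took 0.0148%, 0.0153% and 0.0150% in set 1 and 0.0162%, 0.0157% and 0.0160% in set 2. For MpVg01240 and for the other V identifiers the sets did not overlap (exact permutation test, two-sided p = 0.1 for each, the smallest possible). The tables hold 146 V identifiers, of which 86 had no count in any of the 6 libraries and 6 had at least 10 in each. No U identifiers are in the tables used.

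Most genes differed between the sets, the larger part of them by little. Of 12202 genes tested, 7327 (60.0%) were called at an adjusted p of 0.05, 3596 (29.5%) higher in set 1 and 3731 (30.6%) lower. A change of at least 1 log2 unit was reached by 1231 called genes (10.1%) upwards and 942 (7.72%) downwards, and at least 2 log2 units by 384 (3.15%) and 174 (1.43%). For 8275 genes (67.8%) the 3 values of set 1 did not overlap the 3 of set 2. The median log2 fold change over all genes tested was -0.04. With upper-quartile scaling that median was -0.22 and the split became 2648 higher and 5177 lower, so calls of small size depend on the scaling. As these are whole thalli, fewer cells of a type and less RNA per cell cannot be told apart for any gene below.

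The distance between sets was several times that between replicates. The median absolute log2 difference per gene between a pair of libraries was 0.143 to 0.164 within set 1, 0.122 to 0.141 within set 2, and 0.418 to 0.505 for the 9 pairs of a set 1 with a set 2 control. For comparison, set 1 controls and Mpknox2-1 Mpez1-1 libraries stood 0.35 to 0.517 apart, and set 2 controls and Mpknox2-1 Mpez1-2 libraries 0.226 to 0.268. By this measure every pair of controls from different sets was farther apart than any pair of a set 2 control and its double mutant. By Pearson's r across genes these ranges overlapped, at 0.929 to 0.944 between the controls of the sets and 0.937 to 0.944 between set 2 controls and Mpknox2-1 Mpez1-2. Set 1 controls and Mpknox2-1 Mpez1-1 libraries had r of 0.8508 to 0.9175, lower than any pair of controls from different sets.

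**Figure D1:**
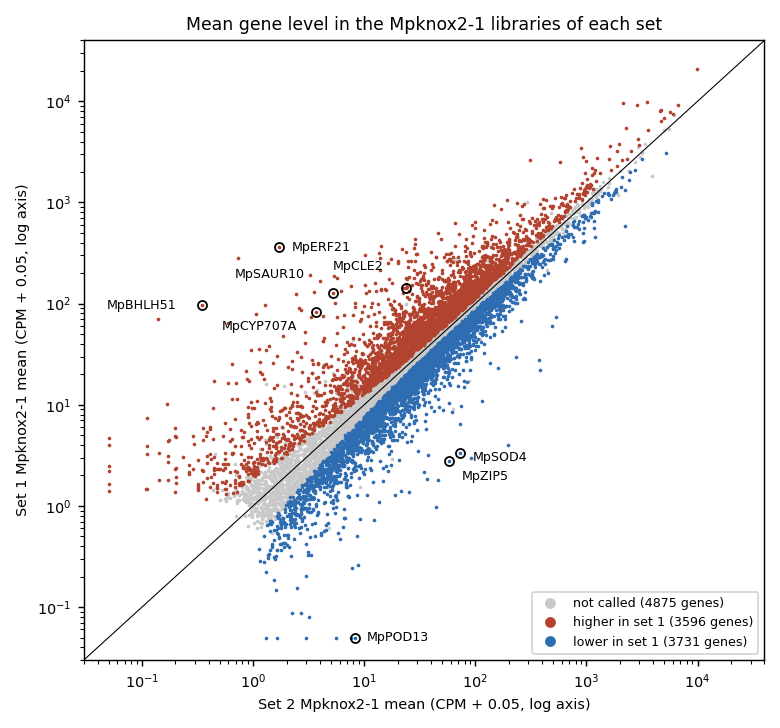
Mean CPM in set 1 controls (vertical) against set 2 controls (horizontal), both log axes, with 1 point per gene tested. Of 12202 genes, 3596 called higher in set 1 lie above the diagonal, 3731 called lower lie below it, and 4875 were not called.

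Among called genes with a symbol, a mean of at least 5 CPM over the 6 libraries and no overlap between sets, the 10 with the largest rise in set 1 held 5 transcription factor genes. Some genes without a symbol rose further and are given with the runs of neighbours below. MpBHLH51 (Mp8g06230), a basic helix-loop-helix factor gene, had 80.5, 92.2 and 117 CPM in set 1 and 0.799, 0 and 0.0902 CPM in set 2 (log2 fold change 8.26 with SE 0.48, edgeR adjusted p = 3.65e-05). MpERF21 (Mp5g22160), an AP2/ERF factor gene, had 319.9, 361 and 404 CPM in set 1 and 2.75, 0.836 and 1.44 CPM in set 2 (log2 fold change 7.73 with SE 0.27, edgeR adjusted p = 9.38e-07). Both were near silent in every set 2 library and well counted in every set 1 library. MpGRAS7 (Mp8g01770), of the GRAS family, had 24.7, 21.2 and 30.5 CPM in set 1 and 0.799, 0.464 and 0.541 CPM in set 2 (log2 fold change 5.37 with SE 0.24, edgeR adjusted p = 5.68e-08). MpBHLH2 (Mp2g00890) had 266, 314 and 329.7 CPM in set 1 and 15.3, 8.17 and 6.94 CPM in set 2 (log2 fold change 4.9 with SE 0.30, edgeR adjusted p = 6.28e-05), and its neighbours MpBHLH3 and MpBHLH4 were called higher by at least 1 log2 unit as well. MpERF15 (Mp7g09350) had 308, 316 and 336 CPM in set 1 and 28.9, 5.76 and 5.59 CPM in set 2 (log2 fold change 4.57 with SE 0.73, edgeR adjusted p = 0.0062). Here set 2 replicate 1, at 28.9 CPM, stood well above the other two set 2 libraries and still far below set 1.

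The other 5 of these 10 held enzyme and stress genes. MpLEA-like59 (Mp8g07630), of the late embryogenesis abundant proteins that accumulate in drying seeds of flowering plants, had 74, 89.8 and 108 CPM in set 1 and 3.29, 2.32 and 2.07 CPM in set 2 (log2 fold change 5.13 with SE 0.20, edgeR adjusted p = 2.4e-07). MpSAUR10 (Mp1g27960) had 144, 120.0 and 120.5 CPM in set 1 and 6.48, 5.29 and 3.88 CPM in set 2 (log2 fold change 4.62 with SE 0.16, edgeR adjusted p = 5.37e-08). MpGH31.1 (Mp5g02330), a glycoside hydrolase gene, had 29.1, 43.7 and 42.4 CPM in set 1 and 1.77, 1.39 and 0.812 CPM in set 2 (log2 fold change 4.84 with SE 0.26, edgeR adjusted p = 1.13e-06). In all 3 the lowest set 1 library was over 10-fold above the highest set 2 library. MpMLS5 (Mp8g16290) had 217, 128 and 228 CPM in set 1 and 3.2, 5.29 and 1.08 CPM in set 2 (log2 fold change 5.91 with SE 0.52, edgeR adjusted p = 0.000643), and MpMLS3 (Mp2g11400), close to silent in set 2, had 7.85, 11 and 11.5 CPM in set 1 and 0.177, 0 and 0.180 CPM in set 2 (log2 fold change 6.26 with SE 0.43, edgeR adjusted p = 1.06e-06).

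Under the same rule, the 10 genes with the largest fall in set 1 held genes of metal handling and superoxide removal. Genes with a lower mean, such as MpPOD13, fall outside that rule and are given below. MpZIP5 (Mp7g02450), of the ZRT/IRT-like family of zinc and iron transporters, had 2.23, 1.69 and 4.22 CPM in set 1 and 52.4, 63.4 and 57 CPM in set 2 (log2 fold change -4.45 with SE 0.23, edgeR adjusted p = 1.84e-06). MpSOD4 (Mp6g09390), a superoxide dismutase gene, had 2.71, 4.7 and 2.51 CPM in set 1 and 64.1, 72.3 and 82.9 CPM in set 2 (log2 fold change -4.43 with SE 0.20, edgeR adjusted p = 6.43e-07). MpFRO3 (Mp6g12800), of the ferric reductase family, had 3.68, 7.99 and 14.7 CPM in set 1 and 50.2, 55.4 and 47.8 CPM in set 2 (log2 fold change -2.57 with SE 0.44, edgeR adjusted p = 0.00558). The set 1 values of MpFRO3 were spread over a wider ratio than its set 2 values, yet the sets did not overlap.

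Cell wall and oxidase genes made up much of the rest. MpGH16.26 (Mp3g22120), of the family that holds xyloglucan-modifying enzymes, had 2.33, 1.33 and 1.48 CPM in set 1 and 12.9, 16.3 and 15.1 CPM in set 2 (log2 fold change -3.1 with SE 0.22, edgeR adjusted p = 1.39e-06). The neighbouring class III peroxidase genes MpPOD88 (Mp5g10690) and MpPOD89 (Mp5g10700) were both lower. MpPOD88 had 12.1, 9.41 and 7.41 CPM in set 1 and 68.3, 67.9 and 86.4 CPM in set 2 (log2 fold change -2.93 with SE 0.17, edgeR adjusted p = 2.21e-06), and MpPOD89 had 33.3, 25.3 and 9.8 CPM in set 1 and 146, 106 and 226 CPM in set 2 (log2 fold change -2.79 with SE 0.55, edgeR adjusted p = 0.0124). MpPOD89 lost its call with set 1 replicate 3 as the only set 1 library (edgeR adjusted p = 0.0649). A second pair of neighbours, the 2-oxoglutarate dioxygenase genes MpDOXC15 (Mp3g11060) and MpDOXC16 (Mp3g11070), moved the same way, by -2.81 and -2.65 on the log2 scale (edgeR adjusted p = 9.12e-06 and 0.000415). MpGH18.7 (Mp5g16560), of a chitinase family, averaged 4.31 ± 0.411 CPM in set 1 and 26.3 ± 8.88 CPM in set 2 (SD, n = 3 each), and MpLEA-like21 (Mp4g13720) averaged 5.76 ± 1.66 CPM in set 1 and 35.8 ± 1.93 CPM in set 2 (SD, n = 3 each). Their log2 fold changes were -2.61 and -2.61 (edgeR adjusted p = 6.01e-05 and 7.71e-07).

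**Figure D2:**
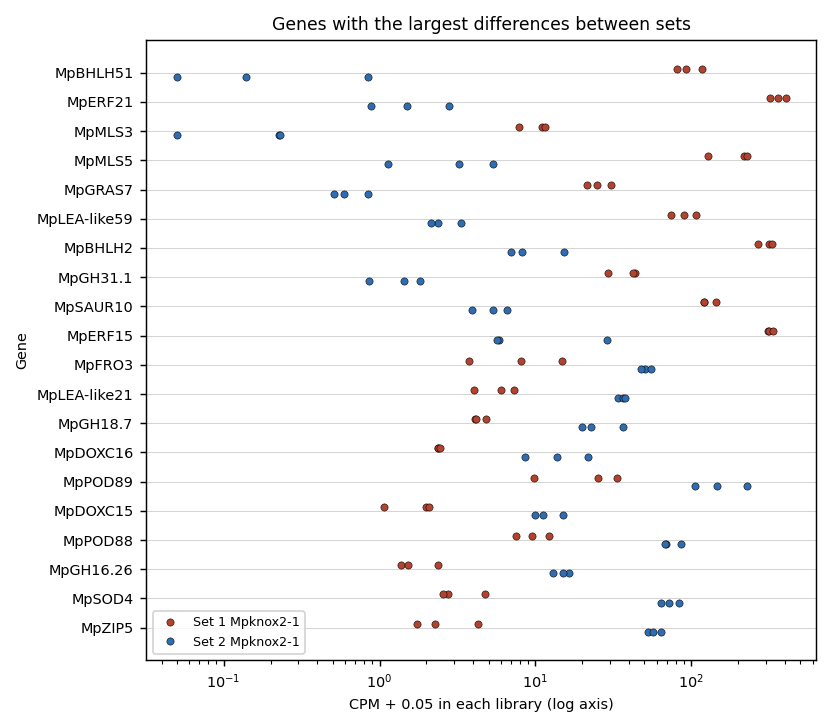
CPM plus 0.05 in each library, on a log axis, of the 10 genes with the largest rise in set 1 above the 10 with the largest fall, among called genes with a symbol, a mean of at least 5 CPM and, as part of that choice, no overlap between sets. MpBHLH51 had 80.5 to 117 CPM in set 1 and 0 to 0.799 CPM in set 2, and MpZIP5 had 1.69 to 4.22 CPM in set 1 and 52.4 to 63.4 CPM in set 2.

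Gene lists drawn up from symbols show which families moved one way. These lists, and the genes named from them, were made with earlier results of these data known, and are described by counts beside the background of 29.5% higher and 30.6% lower. Of 44 AP2/ERF and WRKY genes, 32 were tested, and 21 of them rose and 3 fell in set 1, with a median log2 fold change of 0.90. Of 40 trihelix factor genes, 35 were tested, 23 rose and 2 fell (median 0.48). NAC, bZIP, GATA and zinc finger genes counted 39 risen and 10 fallen of 67 tested (median 0.32), and RAB GTPase and SNARE genes of membrane traffic 19 and 6 of 31 (median 0.30). Autophagy genes counted 11 risen and 2 fallen of 21 (median 0.27). With upper-quartile scaling these counts were 19 and 4 for AP2/ERF and WRKY genes, 19 and 6 for trihelix, 30 and 18 for NAC and related, 12 and 8 for membrane traffic and 8 and 4 for autophagy genes. For counts with that scaling, here and below, the background is 2648 higher and 5177 lower of all 12202 genes tested. In the other direction stood class III peroxidases, with 7 risen and 73 fallen of 104 tested (median -1.07), and cyclins, CDKs and replication genes, with 0 risen and 15 fallen of 21 (median -0.76). The latter list takes in MpMCM and MpKRP, so it overlaps with the replication and cell cycle genes given below. Its counts are not given apart for cyclins and CDKs.

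**Figure D3:**
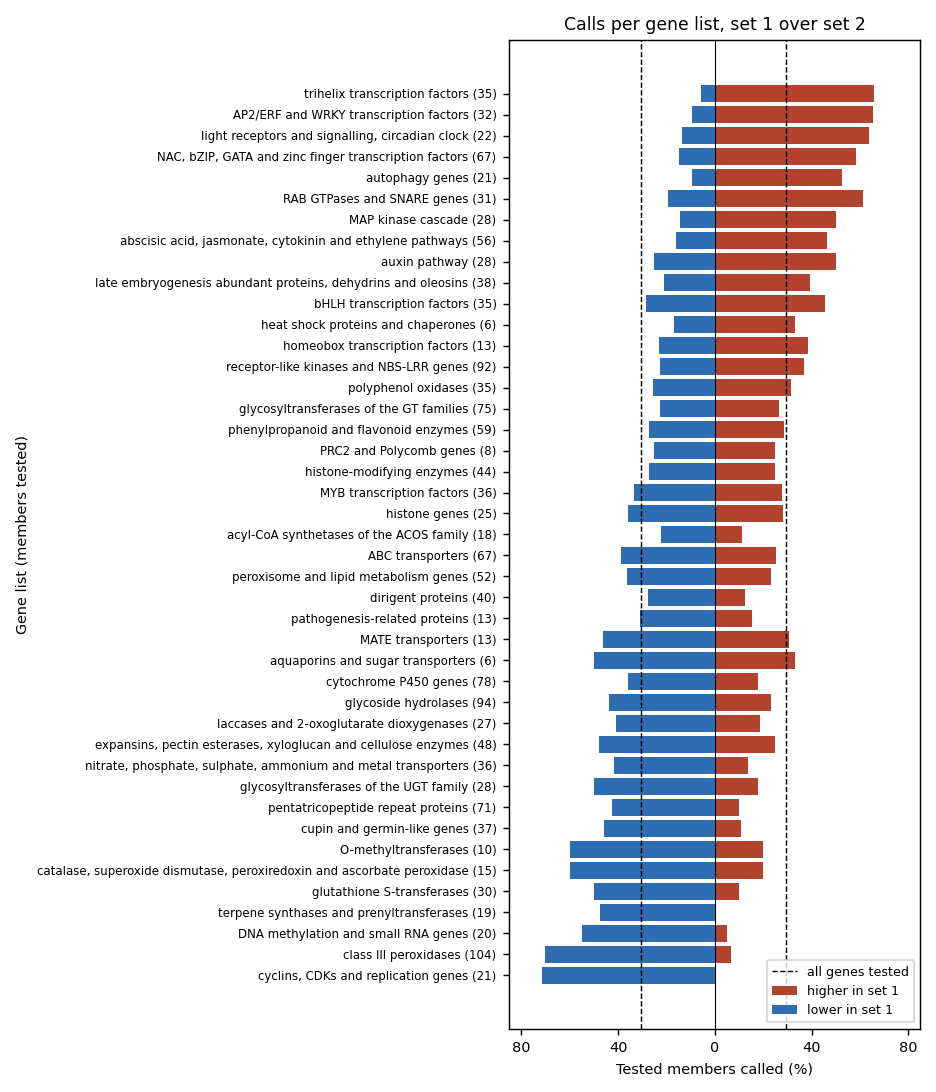
Share of the tested members of each gene list that was called higher or lower in set 1, in percent, with the shares among all genes tested as dashed vertical lines. Peroxidases (70.2% lower) and cell cycle genes (71.4% lower) extend farthest to one side, and trihelix (65.7% higher) and AP2/ERF and WRKY genes (65.6% higher) to the other.

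WRKY genes were higher almost throughout. Of 14, 13 were tested and 12 rose, by 0.30 to 4.29 log2 units, and none fell. MpWRKY14 averaged 149 CPM in set 1 and 7.57 CPM in set 2 (log2 fold change 4.29, edgeR adjusted p = 4.56e-05). MpWRKY9 (Mp7g17200) had 126, 124 and 147 CPM in set 1 and 12.7, 11.3 and 8.84 CPM in set 2 (log2 fold change 3.59 with SE 0.13, edgeR adjusted p = 2.57e-08), and MpWRKY10 (Mp7g06550) had 122, 140.1 and 158 CPM in set 1 and 16.5, 13.2 and 12.5 CPM in set 2 (log2 fold change 3.31 with SE 0.13, edgeR adjusted p = 7.66e-08). Replicates of each lay close together beside the gap between sets. Of 21 ERF genes 14 were tested, 8 rose and 2 fell. Beside MpERF21 and MpERF15 the risen ones included MpERF9 (log2 fold change 4.0) and MpERF7 (3.66). The fallen ones included MpERF4 (Mp2g11080), the cytokinin response factor MpCRF, at -0.78 (SE 0.11, edgeR adjusted p = 0.000167). These symbol families were singled out after their values had been seen.

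Further regulators moved with them. MpNAC2 (Mp6g02590), listed also as MpCUCA, had 179.7, 158 and 191 CPM in set 1 and 50.5, 47.8 and 50.5 CPM in set 2 (log2 fold change 1.83 with SE 0.09, edgeR adjusted p = 7.76e-08). MpTRIHELIX5 (Mp1g26740) had 294, 290.1 and 329 CPM in set 1 and 126, 128 and 111 CPM in set 2 (log2 fold change 1.32 with SE 0.08, edgeR adjusted p = 6.47e-07), and MpTRIHELIX7 (Mp7g12800) averaged 149 ± 6.83 CPM in set 1 and 65.4 ± 2.33 CPM in set 2 (SD, n = 3 each, log2 fold change 1.19, edgeR adjusted p = 4.11e-07). In both trihelix genes every set 1 library lay above every set 2 library. MpHDAC9 (Mp3g20070), of the histone deacetylase family, had 84.6, 100 and 115 CPM in set 1 and 22.2, 20.6 and 18.7 CPM in set 2 (log2 fold change 2.28 with SE 0.12, edgeR adjusted p = 2.48e-07). Fallen factors included MpC2HDZ (Mp2g24200), a class II HD-ZIP gene, at -1.28 (edgeR adjusted p = 2.98e-06), MpGATA4 (Mp7g03490) at -1.01 (edgeR adjusted p = 2.19e-06) and MpBHLH32 (Mp6g04650) at -1.61 (edgeR adjusted p = 4.63e-07). MYB genes as a list lay near the background, with 10 risen and 12 fallen of 36 tested (median -0.04).

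Auxin genes moved in both directions, SAUR genes mostly upwards. Of 14 SAUR genes 13 were tested, 9 rose and 2 fell, with a median log2 fold change of 2.16. MpSAUR13 (Mp1g27930) had 22.4, 25.6 and 28.8 CPM in set 1 and 1.6, 1.58 and 1.17 CPM in set 2 (log2 fold change 4.13 with SE 0.18, edgeR adjusted p = 5.14e-08), and MpSAUR8, MpSAUR7 and MpSAUR14 stood at 4.23, 3.15 and 2.6. MpSAUR10, MpSAUR9 and MpSAUR8 are neighbours, and near-identical copies may share reads. MpSAUR4 (Mp6g13700) went the other way, with 5.13, 3.99 and 2.73 CPM in set 1 and 12.7, 12.7 and 10.6 CPM in set 2 (log2 fold change -1.59 with SE 0.21, edgeR adjusted p = 0.000113). The auxin synthesis genes MpYUC2 and MpTAA were lower. MpYUC2 (Mp8g08780), a flavin monooxygenase for the last step, had 7.55, 6.57 and 5.58 CPM in set 1 and 17, 19.4 and 20 CPM in set 2 (log2 fold change -1.51 with SE 0.15, edgeR adjusted p = 1.15e-05), and MpTAA, the aminotransferase for the step before, stood at -0.63 (edgeR adjusted p = 0.0198). MpTAA lost its call without set 1 replicate 2, set 1 replicate 3 or set 2 replicate 3 (edgeR adjusted p of 0.0626 to 0.0842). Efflux carrier genes divided, with MpPIN3 at 2.28 and MpPIN4 and MpPIN2 at -1.26 and -0.98. Over the whole auxin list 14 of 28 tested genes rose and 7 fell.

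Genes named for abscisic acid (ABA) included a breakdown enzyme, a receptor and a bZIP factor that rose and a B3 factor that fell. MpCYP707A (Mp2g25940), whose family in flowering plants breaks down ABA, had 71.4, 93.4 and 82.6 CPM in set 1 and 3.11, 3.62 and 4.24 CPM in set 2 (log2 fold change 4.49 with SE 0.14, edgeR adjusted p = 8.21e-09), the smallest adjusted p of the cytochrome P450 list. MpPYL1, of the ABA receptor family, averaged 105 CPM in set 1 and 80.4 CPM in set 2 (log2 fold change 0.39, edgeR adjusted p = 0.00329), and MpABI5B averaged 45.5 CPM in set 1 and 12.9 CPM in set 2 (log2 fold change 1.82, edgeR adjusted p = 2.43e-05). MpABI3A averaged 19.7 CPM in set 1 and 35.8 CPM in set 2 and fell (log2 fold change -0.86, edgeR adjusted p = 0.00202). Of 23 PP2C phosphatase genes, which take in clades other than the ABA co-receptors, 19 were tested, 12 rose and 2 fell. MpPP2C_F1 (Mp3g18710) had 294, 336 and 321 CPM in set 1 and 68.4, 56.1 and 55.4 CPM in set 2 (log2 fold change 2.4 with SE 0.10, edgeR adjusted p = 3.47e-08). Lipoxygenase genes, whose products feed oxylipin and jasmonate-type compounds, included MpLOX14 (Mp8g12930), with 33, 34.6 and 30.1 CPM in set 1 and 131, 111 and 114 CPM in set 2 (log2 fold change -1.87 with SE 0.09, edgeR adjusted p = 9.98e-08). The list of ABA, jasmonate, cytokinin and ethylene genes counted 26 risen and 9 fallen of 56 tested (median 0.38), against 22 and 14 (median 0.20) with upper-quartile scaling.

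Clock and light genes were higher more often than lower, in sets that are both labelled as grown in continuous light. Of the 22 genes, all tested, 14 rose and 3 fell (median 0.37), against 11 and 5 with upper-quartile scaling. MpPRR (Mp2g16560), a pseudo-response regulator of the clock, had 119, 129 and 128 CPM in set 1 and 35.7, 40.8 and 34.6 CPM in set 2 (log2 fold change 1.76 with SE 0.08, edgeR adjusted p = 8.25e-08). The clock-type MYB gene MpRVE (Mp1R-MYB11, Mp2g14310) had 58, 61.8 and 68.6 CPM in set 1 and 16.3, 16.1 and 15.4 CPM in set 2 (log2 fold change 1.98 with SE 0.09, edgeR adjusted p = 7.78e-08), and MpTOC1 averaged 250.0 CPM in set 1 and 151 CPM in set 2 (log2 fold change 0.73, edgeR adjusted p = 3.97e-05). All 6 B-box genes were tested, 5 of them rose and none fell, among them MpBBX4 (Mp8g01190), with 292, 336 and 322 CPM in set 1 and 97.1, 99.6 and 94.5 CPM in set 2 (log2 fold change 1.71 with SE 0.08, edgeR adjusted p = 6.43e-08). MpPHOT (Mp5g03810), the blue light receptor phototropin, had 129.9, 147 and 133 CPM in set 1 and 198, 202 and 194 CPM in set 2 and fell (log2 fold change -0.53 with SE 0.07, edgeR adjusted p = 0.000119). MpCRY-DASH (Mp1g25600), a cryptochrome-type photolyase gene, fell as well, with 6.88, 9.58 and 8.55 CPM in set 1 and 27.1, 22.8 and 26 CPM in set 2 (log2 fold change -1.6 with SE 0.14, edgeR adjusted p = 5.14e-06). The time of day of harvest is not given, and its part was not tested.

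Class III peroxidases were lower as a family. Of 168 genes 104 were tested, 73 fell in set 1, 56 of them by at least 1 log2 unit, and 7 rose. MpPOD129 (Mp5g17590) had 16.9, 13.6 and 15.2 CPM in set 1 and 44.6, 56.8 and 54.6 CPM in set 2 (log2 fold change -1.77 with SE 0.12, edgeR adjusted p = 9.7e-07), and MpPOD51 (Mp5g01630) had 22.3, 22.1 and 24.5 CPM in set 1 and 51.3, 59.4 and 59.7 CPM in set 2 (log2 fold change -1.31 with SE 0.09, edgeR adjusted p = 1.32e-06). MpPOD13 (Mp2g19200) and MpPOD15 (Mp2g19250) had no count in any set 1 library. Set at the bound that a floor of 3 counts gives, these 2 genes leave the median of the list at -1.07. The exceptions are as firm: MpPOD152 (Mp7g13980) had 809.9, 849.5 and 972 CPM in set 1 and 371, 411 and 453 CPM in set 2 (log2 fold change 1.09 with SE 0.10, edgeR adjusted p = 6.87e-06), and MpPOD139 stood at 1.57. Reads that fit several copies of this large family may have been shared out or dropped in a way that the sources used here do not give.

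Other enzymes of oxidation and detoxification were lower more often than higher. Glutathione S-transferases counted 3 risen and 15 fallen of 30 tested, UGT glycosyltransferases 5 and 14 of 28, cupin and germin-like genes 4 and 17 of 37, and terpene synthase and prenyltransferase genes 0 and 9 of 19. With upper-quartile scaling glutathione S-transferases counted 1 risen and 20 fallen and UGT genes 3 and 16. MpGST17 (Mp2g04220) had 21.4, 22.4 and 16.8 CPM in set 1 and 80.7, 68.2 and 65.3 CPM in set 2 (log2 fold change -1.82 with SE 0.12, edgeR adjusted p = 1.18e-06), and MpOMT8 (Mp2g07390), an O-methyltransferase gene, had 8.52, 14.5 and 8.21 CPM in set 1 and 59.4, 58.6 and 54.3 CPM in set 2 (log2 fold change -2.45 with SE 0.19, edgeR adjusted p = 2.01e-05). MpMTPSL2 (Mp3g18500), a microbial-type terpene synthase gene, had 0.387, 0.710 and 0.456 CPM in set 1 and 4.71, 3.99 and 4.06 CPM in set 2 (log2 fold change -2.99 with SE 0.33, edgeR adjusted p = 2.55e-05). Against the direction of these lists, MpGST35 (Mp3g16100) had 150.4, 176 and 162 CPM in set 1 and 79.1, 60.9 and 58.2 CPM in set 2 (log2 fold change 1.3 with SE 0.12, edgeR adjusted p = 1.52e-05) and MpOMT13 (Mp2g21090) had 20.2, 27.1 and 31.8 CPM in set 1 and 2.75, 0.186 and 0.361 CPM in set 2 (log2 fold change 4.55 with SE 0.68, edgeR adjusted p = 0.0031). Set 2 replicate 1 of MpOMT13 stood above the other two. MATE transporters, which export organic compounds, counted 4 risen and 6 fallen of 13, and held MpMATE7 (Mp3g04300) with 121, 126 and 134 CPM in set 1 and 21.1, 21.6 and 23.6 CPM in set 2 (log2 fold change 2.52 with SE 0.08, edgeR adjusted p = 8.21e-09).

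Nutrient transporters fell more often than they rose. Of 36 tested, 15 fell and 5 rose (median -0.56). Of the 5 ZIP genes 3 fell and none rose: beside MpZIP5 these were MpZIP1, averaging 3.6 CPM in set 1 and 12.8 CPM in set 2 (log2 fold change -1.83, edgeR adjusted p = 5.55e-06), and MpZIP2, at -0.97. MpFRO2 (Mp3g20260), the second fallen gene of 3 ferric reductases, had 11.8, 14.1 and 8.32 CPM in set 1 and 44.4, 49.1 and 45.2 CPM in set 2 (log2 fold change -2.0 with SE 0.16, edgeR adjusted p = 4.96e-06). MpHKT, of the sodium and potassium transporter family, stood at -1.83. Nitrate and peptide transporters of the NPF family divided, with 4 risen and 8 fallen of 21, and MpNPF34 (Mp8g09440) had 19.9, 14.7 and 11.1 CPM in set 1 and 7.81, 4.92 and 5.14 CPM in set 2 (log2 fold change 1.35 with SE 0.25, edgeR adjusted p = 0.00161). The list of superoxide dismutase, catalase and related genes counted 3 risen and 9 fallen of 15. Within it MpSOD4 and MpSOD5 (Mp7g14090) (250.5, 258 and 311 CPM in set 1 and 493, 519 and 492 CPM in set 2) were lower and MpSOD2 (Mp3g02870) (368, 311 and 391 CPM in set 1 and 207, 198 and 180.0 CPM in set 2) higher. The log2 fold changes of MpSOD5 and MpSOD2 were -0.88 and 0.87 (edgeR adjusted p = 1.82e-05 and 2.91e-05).

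**Figure D4:**
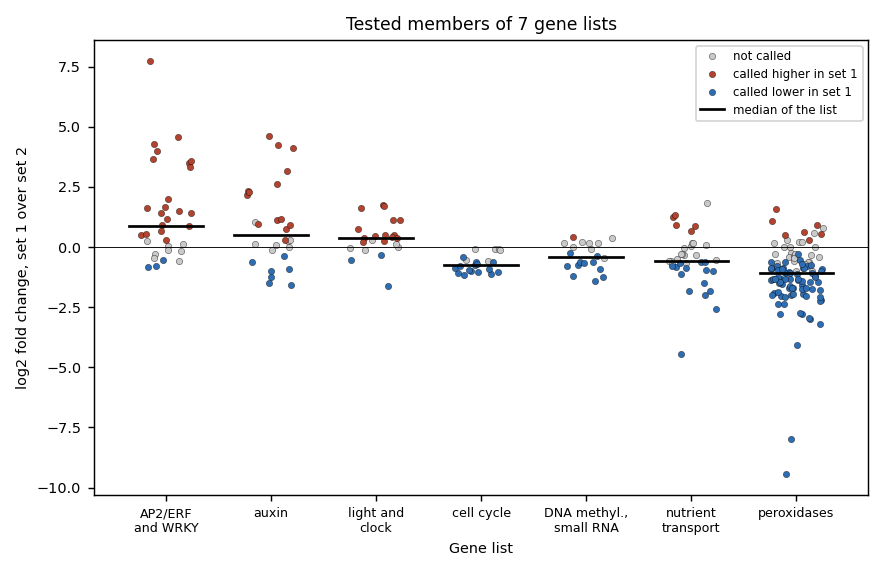
Log2 fold change, set 1 over set 2, of every tested member of 7 gene lists, with the median of each list as a bar. Peroxidases and cell cycle genes lie mostly below 0 (medians -1.07 and -0.76), AP2/ERF and WRKY genes mostly above it (median 0.90), and auxin genes to both sides.

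Genes of DNA replication and the cell cycle were lower. All 10 MCM genes, which encode the replicative helicase and related proteins, were tested, none rose, and 9 fell by 0.63 to 1.16 on the log2 scale. MpMCM4 averaged 3.02 CPM in set 1 and 6.82 CPM in set 2 (log2 fold change -1.16, edgeR adjusted p = 0.00214), and MpMCM2 and MpMCM7 stood at -1.01 and -1.02. MpKRP (Mp3g00300), an inhibitor of cyclin-dependent kinases and so of opposite role, fell too, with 14.7, 15.3 and 17 CPM in set 1 and 30.6, 38.9 and 34 CPM in set 2 (log2 fold change -1.14 with SE 0.11, edgeR adjusted p = 1.34e-05). All 5 genes of the replication-type histone H3.1 fell, at -0.74 to -1.27 on the log2 scale. MpH3.1d (Mp7g16200) had 5.81, 6.92 and 5.58 CPM in set 1 and 15.2, 16.2 and 12.8 CPM in set 2 (log2 fold change -1.27 with SE 0.16, edgeR adjusted p = 6.48e-05). Other histone genes rose, among them MpH4e (Mp5g16840) with 162, 154 and 164 CPM in set 1 and 88.8, 90.4 and 96.4 CPM in set 2 (log2 fold change 0.80 with SE 0.07, edgeR adjusted p = 5.21e-06) and MpH2B.3 (Mp6g04070) at 0.75 (edgeR adjusted p = 1.08e-05), so that histones as a list held 7 risen and 9 fallen of 25. Histone copies are alike in sequence and their counts are uncertain between copies.

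DNA methylation and small RNA genes followed the same direction, with 11 of 20 tested fallen and 1 risen (median -0.41). MpMET, the maintenance DNA methyltransferase, averaged 3.56 CPM in set 1 and 9.43 CPM in set 2 (log2 fold change -1.4, edgeR adjusted p = 0.000108). MpDDM1, a chromatin remodeller needed for DNA methylation in flowering plants, averaged 4.93 CPM in set 1 and 9.41 CPM in set 2 (log2 fold change -0.93, edgeR adjusted p = 0.00083). MpDCL1a (Mp1g02840), a dicer-like gene of the microRNA pathway, had 74.9, 73.2 and 105 CPM in set 1 and 196, 207 and 195 CPM in set 2 (log2 fold change -1.24 with SE 0.13, edgeR adjusted p = 6.44e-05). MpNRPD1 (Mp3g05720), a subunit of RNA polymerase IV, was the 1 risen gene, with 18.1, 19.4 and 18.2 CPM in set 1 and 14.1, 16.1 and 11.3 CPM in set 2 (log2 fold change 0.43 with SE 0.14, edgeR adjusted p = 0.0192). It did not pass with upper-quartile scaling (edgeR adjusted p = 0.128), nor without set 1 replicate 2 or set 2 replicate 3. Polycomb genes counted 2 risen and 2 fallen of 8 tested, and 2 and 4 with upper-quartile scaling. Of these, MpFIE (Mp3g06080), a PRC2 subunit, had 9.3, 9.67 and 8.55 CPM in set 1 and 14.7, 14.6 and 16 CPM in set 2 and fell (log2 fold change -0.72 with SE 0.13, edgeR adjusted p = 0.000706), and MpLHP1 (Mp7g13420), which binds the PRC2 mark in flowering plants, had 49.5, 56.3 and 50.8 CPM in set 1 and 40, 30.1 and 34.5 CPM in set 2 and rose (log2 fold change 0.58 with SE 0.11, edgeR adjusted p = 0.000992).

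Cell wall genes were lower on balance with clear exceptions. Of 37 expansin genes, whose products loosen walls, 21 were tested, 13 fell and 1 rose (median -1.17). MpExpansin6 (Mp1g24230) had 53.4, 65.6 and 47.3 CPM in set 1 and 122, 114 and 107 CPM in set 2 (log2 fold change -1.04 with SE 0.11, edgeR adjusted p = 3.47e-05), and MpExpansin26 stood at -2.33. Glycoside hydrolases counted 22 risen and 41 fallen of 94 (median -0.40), and 14 and 48 with upper-quartile scaling. The cellulose-synthase-like genes went both ways: MpCSLD8 (Mp5g24550) had 358, 354 and 354 CPM in set 1 and 89.9, 80 and 80 CPM in set 2 (log2 fold change 2.09 with SE 0.08, edgeR adjusted p = 1.83e-08), while MpCSLD4 (Mp2g05640) had 10.4, 9.14 and 9.69 CPM in set 1 and 25.8, 30.5 and 27.2 CPM in set 2 (log2 fold change -1.52 with SE 0.11, edgeR adjusted p = 1.68e-06). MpGH17.15 (Mp6g00360), of the glucanase family, had 497, 520.3 and 588 CPM in set 1 and 136, 112 and 109 CPM in set 2 (log2 fold change 2.16 with SE 0.11, edgeR adjusted p = 9.66e-08). MpGT8.6 (Mp2g19350), a glycosyltransferase gene, averaged 199.7 ± 18.1 CPM in set 1 and 29.5 ± 3.18 CPM in set 2 (SD, n = 3 each, log2 fold change 2.76, edgeR adjusted p = 1.83e-08).

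Of the most abundant transcripts that changed by at least 1 log2 unit, none of the 4 higher ones has a symbol. Mp4g10850 had 20238, 19886 and 23069 CPM in set 1 and 10085, 9871 and 9991 CPM in set 2 (log2 fold change 1.08 with SE 0.09, edgeR adjusted p = 2.6e-06), and the adjacent identifier Mp4g10855 had 8786, 9070.3 and 10718 CPM in set 1 and 2123, 2149.5 and 2107 CPM in set 2 (log2 fold change 2.16 with SE 0.09, edgeR adjusted p = 5.17e-08). Mp2g24130 had 10121, 8994 and 10233 CPM in set 1 and 3499.5, 3492 and 3452 CPM in set 2 (log2 fold change 1.49 with SE 0.08, edgeR adjusted p = 2.32e-07). In these 3 genes replicates differed by far less than the sets. MpVg01240 had 7903, 15519 and 4368 CPM in set 1 and 3219, 3008 and 2374 CPM in set 2 (log2 fold change 1.69 with SE 0.53, edgeR adjusted p = 0.0476). It lost its call with upper-quartile scaling, with no filter, without set 1 replicate 1 and without each set 2 library in turn (edgeR adjusted p of 0.0622 to 0.122 in these). With set 1 replicate 3 as the only set 1 library its log2 fold change was 0.63. The 50 most counted genes took 19.7% to 21.7% of the gene counts in set 1 and 16.9% to 18.0% in set 2. The most abundant lower genes were Mp5g20760, with 565, 531 and 679 CPM in set 1 and 2466, 2453 and 1722 CPM in set 2 (log2 fold change -1.9 with SE 0.16, edgeR adjusted p = 2.29e-05), Mp7g16160 and Mp1g29620, at -1.07 and -1.17 (edgeR adjusted p = 3.04e-05 and 2.52e-06), and MpCupin83 (Mp5g13860), with 467, 562 and 341 CPM in set 1 and 1220.2, 1115 and 1223 CPM in set 2 (log2 fold change -1.38 with SE 0.17, edgeR adjusted p = 0.000275).

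Oil body and notch markers moved in both directions, and the 2 rhizoid markers that matched the table fell. MpC1HDZ (Mp3g02320), required for oil body cells to form, had 142, 150.4 and 152 CPM in set 1 and 46.9, 39.1 and 37.5 CPM in set 2 (log2 fold change 1.85 with SE 0.09, edgeR adjusted p = 1.11e-07), while 3 of the other 4 oil body markers fell: MpR2R3-MYB2 (Mp3g07510) at -1.39, MpABCG1 (Mp8g13070) at -1.16 and MpSYP12B at -0.58 (edgeR adjusted p = 0.0147). MpSYP12B did not pass with DESeq2 (adjusted p = 0.0752). The fifth marker, MpERF13, at -0.56, did not pass (edgeR adjusted p = 0.0528) and did so in 3 other settings, upper-quartile scaling among them (edgeR adjusted p = 0.015). The 5 oil body markers summed to 163.6 to 170.7 CPM in set 1 and 77.5 to 87.1 CPM in set 2. MpC1HDZ alone made 142 to 152 CPM of that sum in set 1 and 37.5 to 46.9 CPM in set 2, so its rise sets the direction of the sum. The rhizoid markers were the bHLH gene MpRSL1 (MpBHLH14, Mp3g17930) with 7.36, 5.68 and 6.72 CPM in set 1 and 14.4, 13.3 and 14.8 CPM in set 2 (log2 fold change -1.1 with SE 0.15, edgeR adjusted p = 0.000114), and MpWIP (MpIDDL6) at -0.65 (edgeR adjusted p = 0.000343). Their sum was 30.2 to 37.2 CPM in set 1 and 52.9 to 57.6 CPM in set 2. MpCLE2 (Mp5g18050), a peptide gene that promotes stem cells in the apical notch, had 114, 141 and 178 CPM in set 1 and 22.6, 26.4 and 22.5 CPM in set 2 (log2 fold change 2.59 with SE 0.17, edgeR adjusted p = 1.06e-05). MpCLE2 is the identifier next to MpE(z)1. The 4 matched notch markers summed to 133.1 to 190.5 CPM in set 1 and 52.5 to 59.3 CPM in set 2, with MpYUC2 and MpTAA lower against MpCLE2. Of that sum MpCLE2 alone made 114 to 178 CPM in set 1 and 22.5 to 26.4 CPM in set 2.

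For gemma cups the marker list gave MpR2R3-MYB17 in brackets after MpGCAM1, as if another name of it. In the reference that symbol belongs to a separate gene, Mp1g09420, so its use as a cup marker is uncertain. MpR2R3-MYB17 rose, with 86.7, 67.4 and 60.2 CPM in set 1 and 45, 43.6 and 55.2 CPM in set 2 (log2 fold change 0.58 with SE 0.15, edgeR adjusted p = 0.00975). MpGCAM1 (Mp6g04830) had 3.87, 3.82 and 4.33 CPM in set 1 and 3.02, 0.279 and 0.451 CPM in set 2 and did not pass (log2 fold change 1.66 with SE 0.71, edgeR adjusted p = 0.0816). Its set 2 replicate 1 was again the highest of its set, and without that library the log2 fold change was 3.41 and passed (edgeR adjusted p = 6.39e-05), as it did in 4 other settings, DESeq2 among them. The 3 genes matched for cups, MpR2R3-MYB17 among them, summed to 104.2 to 142.7 CPM in set 1 and 84.9 to 103.1 CPM in set 2. Of 7 matched markers of gametangia and germ cells, MpBNB and MpPRM were at 0 in all 6 libraries, and 1 of 5 tested changed. That gene, MpRKD (Mp3g04030), a germ cell regulator, had 66.3, 67.8 and 63 CPM in set 1 and 114, 111 and 112 CPM in set 2 (log2 fold change -0.77 with SE 0.07, edgeR adjusted p = 5.09e-06), and the markers summed to 78.1 to 79.2 CPM in set 1 and 122.6 to 125.2 CPM in set 2. Sporophyte markers were low throughout, at 3.20 to 3.73 CPM in set 1 and 1.67 to 2.84 CPM in set 2, with MpBELL2 at 0 in all 6. Whether cell type shares take part in any difference above was not tested.

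A handful of genes were counted in 1 set alone. By a rule of no count in all 3 libraries of a set and at least 10 in each of the other, 6 genes (0.0309% of 19441) were counted in set 1 alone and 6 (0.0309%) in set 2 alone. Of the set 2 genes, MpPOD13 had 0, 0 and 0 counts in set 1 and 53, 114 and 101 counts in set 2, at least 81.9-fold lower in set 1 against a floor of 3 counts summed over the 3 libraries. Mp6g12780 had 0, 0 and 0 counts in set 1 and 56, 82 and 112 counts in set 2, at least 76.4-fold lower. Mp5g00830 had 0, 0 and 0 counts in set 1 and 96, 63 and 26 counts in set 2, at least 56.5-fold lower. MpPOD15 and the glycoside hydrolase gene MpGH16.23 were at least 29.6-fold and 16.2-fold lower. At these depths a gene with no count can still be transcribed below the floor.

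Of the genes counted in set 1 alone, Mp8g12720 had 21, 21 and 23 counts in set 1 and 0, 0 and 0 counts in set 2, at least 23.6-fold higher, and Mp1g07300 had 17, 14 and 17 counts in set 1 and 0, 0 and 0 counts in set 2, at least 17.5-fold higher. Mp1g00055b, Mp1g00035e and Mp1g00045c were at least 53.5-fold, 45.8-fold and 27.3-fold higher. These 3 identifiers end in a letter, and the files do not say what the letter marks. All identifiers of that kind together took 0.141%, 0.158% and 0.0457% of the gene counts in set 1 and 0.0363%, 0.0334% and 0.0287% in set 2, so they were high in set 1 replicates 1 and 2. Leaving out letter-suffix, V and unplaced identifiers left 7258 genes called.

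Some neighbouring genes were called the same way. Genes are numbered along the chromosomes, and the chromosome is read from the identifier. Runs of at least 3 neighbouring tested genes, called the same way by at least 1 log2 unit, numbered 36 upwards with 128 genes and 36 downwards with 134 genes. How many such runs these shares of called genes alone would give was not tested. The run with the largest changes upwards spanned Mp5g07480 to Mp5g07550, 7 genes with a median log2 fold change of 5.01 (3.62 to 9.42). In it Mp5g07490 had 249, 252 and 339 CPM in set 1 and 1.42, 0.371 and 0.271 CPM in set 2 (log2 fold change 8.63 with SE 0.37, edgeR adjusted p = 7.14e-06), and Mp5g07540 had 158, 175 and 203 CPM in set 1 and 5.33, 5.48 and 5.95 CPM in set 2 (log2 fold change 5.0 with SE 0.12, edgeR adjusted p = 2.1e-09). Mp5g07550 had 2097 counts in set 1 and 3 in set 2, a pooled ratio of 762 with an exact 95% counting interval of 260.5 to 3700.1. None of the 7 has a symbol in the reference table. Other upward runs spanned Mp4g13180 to Mp4g13280 (7 genes, median 1.47) and Mp2g01700 to Mp2g01820 (6 genes, median 2.78).

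Downward runs held known gene families. Mp5g13790 to Mp5g13870 held 6 genes with a median of -1.83, the peroxidases MpPOD101, MpPOD104, MpPOD105 and MpPOD106 and the cupins MpCupin83 and MpCupin84. MpPOD106 had 2.71, 3.82 and 3.88 CPM in set 1 and 10, 12.4 and 11.8 CPM in set 2 (log2 fold change -1.72 with SE 0.19, edgeR adjusted p = 2.94e-05), and MpCupin84 had 46.2, 84.6 and 72 CPM in set 1 and 218, 249.9 and 312 CPM in set 2 (log2 fold change -1.94 with SE 0.26, edgeR adjusted p = 0.00168). Mp3g07660 to Mp3g07730 held 6 genes with a median of -1.32, among them MpHA13, MpHA11 and MpHA12, of the plasma membrane proton pump family, and MpH3.1a. MpHA11 (Mp3g07700) had 7.85, 6.57 and 11.4 CPM in set 1 and 30.6, 54.1 and 42.8 CPM in set 2 (log2 fold change -2.32 with SE 0.29, edgeR adjusted p = 0.000657). The downward run with the largest change by its median was Mp7g07870 to Mp7g07910, 5 genes with a median of -5.55. Mp7g07900 there had 3.49, 3.46 and 4.79 CPM in set 1 and 212, 295 and 79.3 CPM in set 2 (log2 fold change -5.65 with SE 0.72, edgeR adjusted p = 0.00291), and Mp7g07890 had 2.23, 2.04 and 2.05 CPM in set 1 and 29.6, 68.8 and 5.59 CPM in set 2 (log2 fold change -4.03 with SE 1.19, edgeR adjusted p = 0.0418). Set 2 replicate 3 was the lowest of its set in all 5 genes of the run, and Mp7g07870 and Mp7g07890 lost their calls with each set 1 library left out in turn (edgeR adjusted p of 0.0588 to 0.131).

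Calls were spread over all chromosomes. The share of genes called ran from 57.8% on chromosome 8 to 62.8% on chromosome 5. For changes of at least 1 log2 unit the share ran from 13.3% on chromosome 1 to 22.4% on chromosome 5. Of 50 tested genes on unplaced sequence 50% reached 1 log2 unit, and of 11 on the V chromosome 36.4%.

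Transposable elements moved in both directions. Of 206 TE copies tested in the first tables, 110 (53.4%) were called, 59 (28.6%) higher and 51 (24.8%) lower. Most copies called lower were repeats of unassigned class, with 21 higher and 41 lower of 113 tested. LTR/Gypsy copies counted 20 higher and 2 lower of 43, and DNA/DTM copies 10 and 6 of 25. Summed over the copies of a family, 91 of 155 families tested (58.7%) were called, 66 (42.6%) higher and 25 (16.1%) lower. By class, LTR/Gypsy retrotransposons summed to 46291, 72763 and 20104 counts in set 1 and 22009, 19336 and 16933 counts in set 2. Scaled to CPM these sums were 4484, 6457 and 2291 in set 1 and 1954, 1795 and 1527 in set 2. On that scale set 1 replicate 3 lay above every set 2 library and closer to them than to the other set 1 libraries. LTR/Copia summed to 848, 556 and 531 counts in set 1 and 262, 249 and 220 counts in set 2, without overlap. Repeats of unassigned class ran the other way, at 7889, 7870 and 6122 counts in set 1 and 11171, 10251 and 9610 counts in set 2. Which strand the first tables count for TE copies is not given.

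Families are named here by smallest adjusted p, a choice that favours those with libraries of a set close together. TE_00000758, an LTR/Gypsy family of 27 copies, had 1195, 1452 and 1070 counts in set 1 and 439, 424 and 442 counts in set 2 (log2 fold change 1.63 with SE 0.09, edgeR adjusted p = 8.89e-06). TE_00000355, a DNA/DTM family, had 308, 326 and 308 counts in set 1 and 96, 99 and 98 counts in set 2 (log2 fold change 1.82 with SE 0.14, edgeR adjusted p = 3.9e-05). TE_00000028, of unassigned class, had 158, 142 and 146 counts in set 1 and 613, 890 and 610 counts in set 2 (log2 fold change -2.11 with SE 0.20, edgeR adjusted p = 9.31e-05). These 3 families did not overlap between the sets, though set 2 replicate 2 of TE_00000028 stood above the rest of its set. The single-copy family LTRRT_59 had 20, 25 and 19 counts in set 1 and 154, 136 and 178 counts in set 2 (log2 fold change -2.74 with SE 0.19, edgeR adjusted p = 3.11e-05).

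Single copies gave the sharpest contrasts. TE_homo_99 of the Gypsy family TE_00000630 had 428, 409 and 222 counts in set 1 and 0 in each set 2 library, at least 385-fold higher. Another copy of that family, TE_homo_41933, had 99, 193 and 45 counts in set 1 and 0 in set 2, at least 122.5-fold higher. TE_homo_87389, of unassigned class, had 0 counts in set 1 and 78, 44 and 88 counts in set 2, at least 64.2-fold lower. The first 2 copies also had no count in the Mpknox2-1 Mpez1-2 libraries of set 2, against 1362 and 418 counts in the Mpknox2-1 Mpez1-1 libraries of set 1. TE_homo_87389 had 63 counts in Mpknox2-1 Mpez1-1 and 166 in Mpknox2-1 Mpez1-2.

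In the second tables, read as the opposite strand, 532 of 1577 genes tested (33.7%) were called, 380 (24.1%) higher in set 1 and 152 (9.64%) lower, and 576 of 984 TE copies (58.5%). Their gene counts were 2.03%, 1.79% and 2.0% of the counts of genes on both strands in set 1 and 1.76%, 1.71% and 1.66% in set 2 (exact permutation test, two-sided p = 0.1, the smallest possible). The sets did not overlap, though set 1 replicate 2 lay close to set 2 replicate 1. Second-table TE counts equalled 6.72%, 8.44% and 4.43% of all first-table counts in set 1. In set 2 these shares were 4.35%, 4.22% and 4.0% (exact permutation test, two-sided p = 0.1). These shares did not overlap either, though set 1 replicate 3 lay close to set 2. The TE copies, classes and families named above leave these counts out.

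The double mutants, which share no library with the controls, gave a second view of the sets, though there the allele differs along with the set, and allele and set cannot be told apart. Between Mpknox2-1 Mpez1-1 and Mpknox2-1 Mpez1-2, 7829 of 12869 genes (60.8%) and 220 of 358 TE copies (61.5%) were called. Of 2092 genes called by at least 1 log2 unit in the controls and tested in both, 1954 (93.4%) had the same sign in the double mutants and 1733 (82.8%) were called there in that direction, while 57 (2.72%) were called in the opposite one. Over all 12004 genes tested in both, 78.5% had the same sign (Pearson's r 0.754 and Spearman's rho 0.725 across genes, which are not independent replicates). Of those 12004 genes, 54.1% were called in the double mutants with the same sign and 7.27% with the opposite one.

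Named genes repeated their direction to different degrees. MpERF21 averaged 397 ± 25.8 CPM in Mpknox2-1 Mpez1-1 and 0.237 ± 0.230 CPM in Mpknox2-1 Mpez1-2 (SD, n = 3 each, log2 fold change 10.61 with SE 0.24, edgeR adjusted p = 7.56e-09), and MpWRKY9 averaged 155 ± 12.2 CPM in Mpknox2-1 Mpez1-1 and 9.06 ± 0.584 CPM in Mpknox2-1 Mpez1-2 (log2 fold change 4.09 with SE 0.10, edgeR adjusted p = 1.36e-08). MpCLE2 averaged 139 ± 9.03 CPM in Mpknox2-1 Mpez1-1 and 26.7 ± 1.17 CPM in Mpknox2-1 Mpez1-2 (log2 fold change 2.38 with SE 0.09, edgeR adjusted p = 7.87e-08). In these 3 genes the sets differed by over 2 log2 units in controls and in double mutants alike. Peroxidases fell in 97 of 118 tested genes and rose in 8 (median -1.93), beside 30.3% higher and 30.5% lower among all genes tested there. MpSOD4 averaged 37.3 ± 19.5 CPM in Mpknox2-1 Mpez1-1 and 41.4 ± 18.3 CPM in Mpknox2-1 Mpez1-2 and did not pass (log2 fold change -0.16 with SE 0.51, edgeR adjusted p = 0.804), and neither did MpMLS3 (log2 fold change 0.34 with SE 0.41, edgeR adjusted p = 0.493) or Mp7g07900 (log2 fold change -0.22 with SE 0.22, edgeR adjusted p = 0.41). Clock and light genes were divided there, 9 risen and 8 fallen of 22. The difference between the effect of set in controls and in double mutants was itself tested across all 12 libraries, and 3050 of 13244 genes (23.0%) passed. That fit shared a dispersion per gene over all groups, though the spread between replicates differed between the groups of double mutants.

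**Figure D5:**
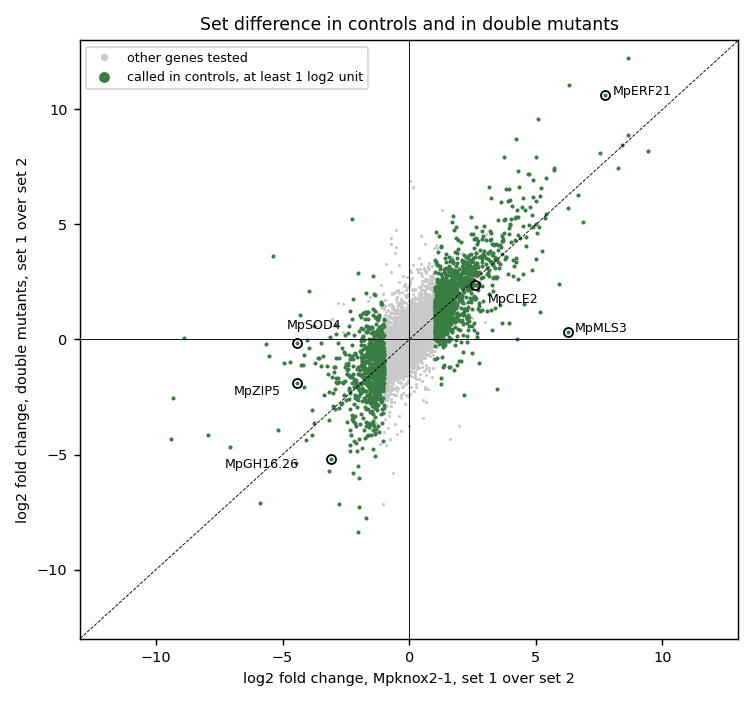
Log2 fold change, set 1 over set 2, in the double mutants (vertical) against the controls (horizontal), with 1 point per gene tested in both. Genes called by at least 1 log2 unit in the controls lie mostly along the dashed line of equal change, 93.4% with the same sign, while MpSOD4 and MpMLS3 lie near 0 in the double mutants.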

How the data were processed

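RNA of 6 Mpknox2-1 control libraries and 6 double mutant libraries was analysed from the counts that the authors deposited, which are raw whole numbers for each gene and each TE copy in 2 tables per library. Libraries were made from polyadenylated RNA with a directional kit, per the labels' protocols. Per the submitters' processing notes, Trim Galore and STAR were used, with no version stated. No source used here names the counting tool, the genome build or the handling of reads with several places. The first tables were used, and the second tables, read as the opposite strand from their low gene counts, only where named. Symbols came from the RefSeq gene table of MpTak2_v7.1 by identifier: 17624 of 19441 identifiers matched, and 3088 had a symbol. No sequences were used.

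Set 1 controls were tested against set 2 controls in a fit of these 6 libraries by the quasi-likelihood test of edgeR 4.0.16 (R 4.3.3, robust glmQLFit). Features passed filterByExpr at min.count 10 and min.total.count 15. TMM factors came from genes and TE copies together. P-values were adjusted by Benjamini-Hochberg for genes and for TE copies apart, and calls were made at 0.05. The procedure was tested on simulated data in which most genes were unchanged. Most genes were called here, so that test does not show how the scaling behaves in these data. TE families are sums over copies. CPM of double mutants were scaled within those 6 libraries. The SE is the log2 fold change divided by the square root of the F statistic, thus derived from the test. Bounds use a floor of 3 counts per group, and floors and 95% intervals cover counting error only. Depth was 9765787 to 12098548 gene counts per control library. The biological coefficient of variation was 11.3% in set 1 controls and 11.1% in set 2 controls. In Mpknox2-1 Mpez1-1 it was 16.4% and in Mpknox2-1 Mpez1-2 6.73%. Replicate pairs differed by a chi-square of 6.27 to 18.1 per degree of freedom, so no library was a repeat of another. Replicate numbers did not pair the sets.

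The members, the 43 lists and the rule for named genes were chosen with earlier results of these data known. The rule took the targeted genes, cell type markers, and in each direction: the 10 genes with a symbol and 3 without with the largest change at a mean of at least 5 CPM and no overlap, the 4 most abundant changed by 1 log2 unit, up to 5 counted in 1 set alone, up to 2 per list by adjusted p, the 3 longest runs, and 4 TE families and 3 TE copies. Other list members named in the text, MpBHLH3 and MpBHLH4 were chosen after their values were seen. Alternatives were DESeq2 1.42.0, other scalings and filters, a fit of all 12 libraries, a replicate block and each library left out.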

Additional observations from a re-analysis of the deposited data

Results flagged for a closer look

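The difference between sets was not the same in controls and in double mutants for 3050 genes, by a test of the difference itself in a fit of all 12 libraries (edgeR, adjusted p of 0.05). Values below are the set 1 over set 2 log2 fold change in controls minus that in double mutants, so a positive value is a larger excess of set 1 in the controls. In the double mutants the allele changes with the set. The genes were named for large changes in the controls, which are part of both measures.

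Among genes higher in set 1 controls the value was 5.89 for MpMLS3, 3.48 for MpMLS5, 1.82 for MpGH31.1, 1.0 for Mp4g10850 and 1.09 for Mp4g10855, whose excess was larger in the controls. It was -2.9 for MpERF21, -2.02 for MpBHLH2 and -3.65 for Mp5g07490, whose excess was larger in the double mutants.

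Among genes lower in set 1 controls the deficit was larger in the controls for MpZIP5 (-2.56), MpSOD4 (-4.27), MpFRO3 (-2.04), MpPOD88 (-1.75), MpPOD89 (-1.98), MpDOXC15 (-2.68), MpDOXC16 (-2.28), MpLEA-like21 (-0.79) and Mp5g20760 (-1.15). So it was for Mp7g07900 (-5.44), Mp7g07870 (-4.81) and Mp7g07910 (-3.93) of a single run, and for Mp5g00830, which had no count in set 1 controls, against 904 counts in Mpknox2-1 Mpez1-1 and 1136 in Mpknox2-1 Mpez1-2. Its fitted value, -8.82, depends on the prior count added to the zeros and is neither a size nor a bound. MpGH16.26 had the larger deficit in the double mutants (2.11).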

How the results depend on the processing

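Of 247 named genes tested, 35 lost or gained a call under at least 1 alternative and 0 changed sign. Leaving out 1 library at a time gave 6410 to 6840 genes called, 3201 to 3489 higher and 3209 to 3413 lower, 1202 to 1323 higher and 878 to 963 lower by at least 1 log2 unit, 106 to 128 TE copies and 79 to 104 TE families. Differences in share, in percentage points, were 0.105 to 0.301 for TE copies, 0.181 to 0.303 for opposite-strand gene counts and 0.262 to 0.790 for V identifiers; the lowest V value, against 0.553, was without set 1 replicate 2. DESeq2 called 6514 genes and 138 TE families, against 91 with edgeR. With no filter on low counts 7772 genes, 171 TE copies (against 110) and 182 TE families were called; the cause was not tested. Upper-quartile scaling turned the medians of homeobox (0.16 to -0.02), receptor-like kinase (0.07 to -0.10) and glycosyltransferase (0.04 to -0.14) lists. Set 1 replicate 3 alone, assumed to vary like set 2, gave 5855 genes, and MpERF15, MpPOD89, MpDOXC16, MpOMT13, MpR2R3-MYB17, MpSYP12B, Mp5g20760 and Mp7g07900 were among those that lost their calls. Same-numbered replicates of the sets did not deviate together (correlations -0.0235, 0.0151 and -0.108), and with a replicate block 6907 genes were called; MpPOD89 and MpVg01240 lost their calls.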

Other observations

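Families of phenolic metabolism held genes higher and genes lower in set 1, the first 2 lists at shares near the 29.5% higher and 30.6% lower of all genes tested. Phenylpropanoid and flavonoid enzymes counted 17 risen and 16 fallen of 59 tested (median -0.04), and polyphenol oxidases 11 and 9 of 35. MpDFR-like8 (Mp2g22600), of the dihydroflavonol reductase-like family, had 25.4, 19.2 and 29.5 CPM in set 1 and 7.9, 9.1 and 9.47 CPM in set 2 (log2 fold change 1.48 with SE 0.16, edgeR adjusted p = 3.1e-05). MpLAR-like5 (Mp8g06810) had 60.8, 85.4 and 66.8 CPM in set 1 and 174, 166 and 164 CPM in set 2 (log2 fold change -1.24 with SE 0.12, edgeR adjusted p = 1.43e-05). MpPPO17 (Mp5g15320) had 92, 79.6 and 75.6 CPM in set 1 and 31.6, 26.3 and 24.9 CPM in set 2 (log2 fold change 1.58 with SE 0.11, edgeR adjusted p = 1.18e-06), while the neighbours MpPPO14 and MpPPO72 on chromosome 6 stood at -1.58 and -1.5. Dirigent genes, which guide the coupling of phenolic radicals, counted 5 risen and 11 fallen of 40, with MpDIR55 (Mp8g16550) at 6.68, 7.45 and 6.38 CPM in set 1 and 37.4, 35.7 and 33.5 CPM in set 2 (log2 fold change -2.37 with SE 0.11, edgeR adjusted p = 7.26e-08). Pentatricopeptide repeat genes, whose products act on organelle RNA, counted 7 risen and 30 fallen of 71, nearly all by less than 1 log2 unit (median -0.20), and 3 and 42 with upper-quartile scaling. The water channel gene MpTIP1 (Mp1g20890) had 7673, 7969.5 and 8278 CPM in set 1 and 4657, 4541 and 4596 CPM in set 2 (log2 fold change 0.79 with SE 0.07, edgeR adjusted p = 8.96e-06), and MpTIP2 (Mp6g11780) had 11.9, 11 and 13.9 CPM in set 1 and 38.6, 48.6 and 41.7 CPM in set 2 (log2 fold change -1.81 with SE 0.12, edgeR adjusted p = 9.44e-07).

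Some lists looked unlike each other in controls and double mutants. In set 1 over set 2, late embryogenesis abundant genes counted 15 risen and 8 fallen of 38 in controls and 43 and 5 of 65 in double mutants. Pathogenesis-related genes counted 2 risen and 4 fallen of 13 in controls and 21 and 4 of 32 in double mutants. The tested members are not the same in each, and the difference was not tested.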
